A study of Mus musculus with 6 samples.

Results

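The genes described here are those whose full symbol in the deposited count tables is Gpr followed by a number and at most 1 further letter, the placeholder name given to a receptor before its ligand is known. The rule found 91 of the 38926 symbols in the tables, and each of the 91 matched a protein-coding gene of the mouse annotation. The study profiled RNA of whole lumbar dorsal root ganglia (L3, L4 and L5) from wild type male C57BL/6 mice aged 6 to 8 weeks, in a model of pain after a burn. The burn group held 3 libraries taken 3 days after the injury, and the control group held 3 libraries; no transgene, drug or other allele is recorded for either group. The labels do not say how many animals gave each library, what procedure the controls received, or which side the ganglia came from, except that the title of 1 burn library, called burn replicate 3 here, marks it as ipsilateral. Control replicate 3 and burn replicate 3 were sequenced more deeply than the other 4 libraries and stood apart in mitochondrial reads, at 4.41% and 5.44% against 1.71% to 2.70%.

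G protein-coupled receptors sit in the cell membrane, cross it repeatedly and pass an outside signal to heterotrimeric G proteins, which act on adenylyl cyclases, phospholipases and ion channels. Receptors with no accepted ligand are called orphans, and the Gpr symbols also cover receptors since matched to lipids, protons or metabolites, the adhesion receptors with their long extracellular parts, and some membrane proteins of the Golgi and lysosome that are not classical receptors. In sensory ganglia such receptors are known for tuning the excitability of the neurons and for steering satellite glia, Schwann cells and resident macrophages. Gpr151 is an orphan that resembles the galanin receptors, is known from axons of habenular neurons, and is known to be induced in sensory neurons after nerve injury.

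Gpr151 was the only 1 of the 91 genes that passed the test. Its reads numbered 41, 20 and 80 in control replicates 1, 2 and 3, and 404, 496 and 640 in burn replicates 1, 2 and 3. Scaled to library size, these were 1.12, 1.11 and 1.01 CPM (reads per 1000000 scaled reads) in the control group, against 17.8, 16.4 and 9.73 CPM in the burn group. The groups did not overlap: the lowest burn library, replicate 3, stood well above every control. The mean rose from 1.08 ± 0.0641 to 14.7 ± 4.33 CPM (SD, n = 3 each), a ratio of means of 13.6. The log2 fold change was 3.77 (SE 0.27), with an adjusted p of 0.00915 in edgeR's quasi-likelihood test with Benjamini-Hochberg adjustment over all 17534 genes tested. By fold change Gpr151 was 8th of those genes, and by p it was the 2nd.

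The size of the Gpr151 difference was steady and its call was not. Over 17 alternative settings the log2 fold change ran from 3.60 to 4.06, while the edgeR, DESeq2 or limma-voom adjusted p ran from 5.32e-34 to 0.9999. With limma-voom the adjusted p was 0.0506. Leaving out control replicate 1, 2 or 3 gave an edgeR adjusted p of 0.216, 0.0753 and 0.0794 in turn, and leaving out burn replicate 2 gave 0.119. Without burn replicate 1 it was 0.0187 and without burn replicate 3 it was 0.00057, so the call held without either of those libraries. Because the labels do not say that libraries came from separate mice, all p-values here measure the spread between these 6 libraries, which may be partly technical.

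To place Gpr151 among its class, each gene's CPM were divided by the length of its merged exons in kilobases, which makes levels of different genes comparable. On this scale Gpr151 held 0.609 ± 0.0362 CPM per kb in the controls (SD, n = 3). It ranked 50 of 91, a little below the class median of 0.721 CPM per kb. Its neighbours in the control order included the orphan Gpr165 at 0.610 ± 0.0713, with Gpr179, a class C protein of retinal bipolar cells, at 0.608 ± 0.0526 and the brain orphan Gpr63 at 0.592 ± 0.140 below it. These 4 levels lay within each other's SD, so the order among them carries no meaning. After the burn Gpr151 held 8.28 ± 2.44 CPM per kb and ranked 9 of 91.

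Its new neighbours were among the most abundant members. Gpr89, a Golgi anion channel that regulates pH, stood above it at 10.6 ± 1.51 CPM per kb, and so did Gpr155, a lysosomal cholesterol sensor, at 10.3 ± 2.03. Below it stood 2 adhesion receptors of blood vessels, Gpr124 at 8.19 ± 3.22 and Gpr116 at 7.13 ± 0.328. The intervals of 1 SD around these levels overlapped that of Gpr151. By library, Gpr151 ranked 47, 53 and 51 in the controls, against 8, 9 and 16 after the burn, with the last value in burn replicate 3.

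The climb of 41 places in the order was set beside the moves of the other 72 tested members. Among these the largest gain was 10 places, by Gpr63, and the largest loss was 10 places, by Gpr81, the lactate receptor now named Hcar1; the median move was 1.5 places. Among the 44 members whose coding sequence lies in 1 exon, the layout typical of many small receptors, Gpr151 went from 19th to 1st. It supplied 0.0972%, 0.0886% and 0.0727% of all member reads in control replicates 1, 2 and 3, and 1.40%, 1.28% and 0.704% in the burn replicates. The summed level of the 91 members was 1264 ± 116 CPM in controls and 1315 ± 58.1 CPM after the burn, and without Gpr151 it was 1263 ± 116 and 1300 ± 62.4 CPM (SD, n = 3), so the sums differed by less than their spread.

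**Figure D1:**
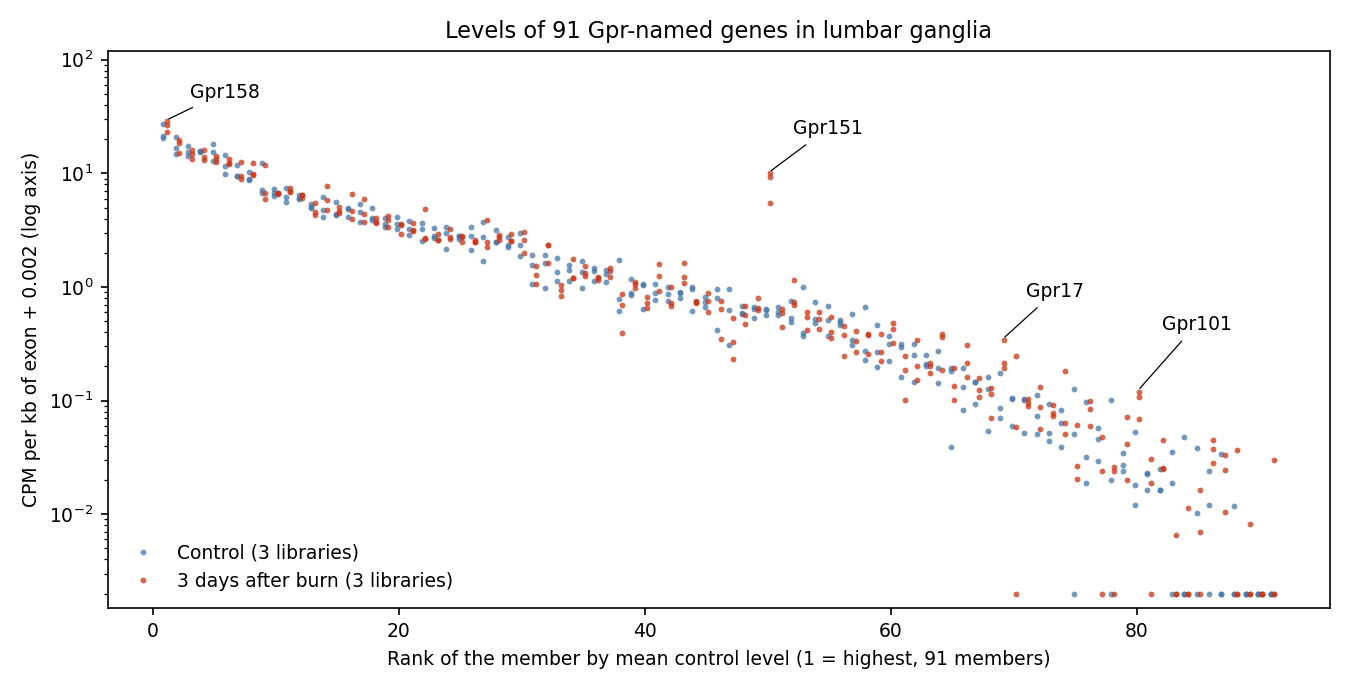
Level of each of the 91 members in each library, in CPM per kb of exon on a log axis, ordered by mean control level (rank 1 is the highest); blue points are the 3 control libraries, red points the 3 burn libraries, and a small constant was added so that libraries with 0 reads appear at the bottom. The red points of Gpr151 (rank 50) stand at the height of members ranked near 9, while those of most members lie on the blue ones.

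In the control libraries Gpr151 varied little, with a coefficient of variation of 5.94% against a median of 18.5% over tested members, and after the burn it varied more, with 29.5% against a median of 18.2%. The difference was also taken within each depth class, with 0.1 CPM added before logs. As a log2 difference it was 3.15 in the deeper pair and 3.82 in the 4 shallower libraries. Pooled over libraries, the ratio of burn to control CPM was 12.4, with an exact 95% interval of 10.4 to 14.8 that covers counting error only. In RNA from whole ganglia, more cells expressing a gene and more RNA per cell cannot be told apart.

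Gpr151 (gene ID ENSMUSG00000042816.4) is annotated on the minus strand of chromosome 18 of GRCm38 from 42577881 to 42579652 as 1 exon, of 1.772 kb, that overlaps no exon of another gene. Its reads therefore had no annotated overlapping partner on either strand. Over the 91 members, 28 had some exon overlap with another gene, 4 of them on the same strand and 25 on the other.

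No other member passed the test. Of the 91 members, 73 had enough reads to be tested, and edgeR called 1 of them higher after the burn (1.37%) and none lower, beside 4 of 17534 genes called higher (0.0228%) and none called lower (0%) over the whole table. The tested members split into 36 with a positive and 37 with a negative log2 fold change, with a median of -0.0051 beside 0.0080 over all tested genes, and 61 of the 73 lay between -0.5 and 0.5. DESeq2 called 28 genes of 26927 higher (0.104%), of which Gpr151 was the only member, and 0 lower (0%). limma-voom called 3 genes higher (0.0171%), none of them a member, and 0 lower (0%).

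Looser criteria gave a small group to look at beside Gpr151. An unadjusted edgeR p under 0.05 was reached by 5 members (6.85%), 4 of them higher and 1 lower, beside 2.96% of all tested genes. The libraries of the 2 groups did not overlap for 6 members (8.22%), 4 higher and 2 lower, beside 7.24% of all tested genes, which is close to the background. A log2 fold change past 1 in either direction was reached by 3 members, Gpr151, Gpr101 and Gpr17, beside 1.48% of all tested genes. None of these members but Gpr151 passed the adjusted test, and over the 72 other tested members the edgeR adjusted p was 0.9998.

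Gpr101 is an orphan of the hypothalamus and pituitary that couples to Gs; extra copies of its gene are known to cause early-onset gigantism in people. It had 2, 5 and 7 reads in control replicates 1, 2 and 3 and 13, 11 and 42 reads in burn replicates 1, 2 and 3. This made 0.0546, 0.278 and 0.0880 CPM in controls and 0.574, 0.364 and 0.639 CPM after the burn, so every burn library was above every control at a very low level. The log2 fold change was 2.22 (SE 0.55), with an adjusted p of 0.9998 in edgeR's test. The ratio of pooled CPM was 5.33, with an exact 95% interval of 2.97 to 10.3 for counting error. Gpr101 and Gpr151 were the 2 tested members with a log2 difference above 1 in both depth classes, at 1.97 and 1.21 for Gpr101, and no tested member was below -1 in both.

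Gpr17, known from oligodendrocyte precursors, where it holds back maturation, had 0.437, 0.890 and 0.352 CPM in control replicates 1, 2 and 3 and 1.77, 0.993 and 1.10 CPM after the burn. The lowest burn library and the highest control library were close, at 0.993 and 0.890 CPM. Its log2 fold change was 1.30 (SE 0.42), with an edgeR adjusted p of 0.9998. The 2 other members known mainly from oligodendrocytes and other glia were Gpr62, a myelin receptor, with a log2 fold change of 0.53 (SE 0.39), and Gpr37, a receptor linked to prosaposin, with 0.11 (SE 0.14).

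Markers of central nervous tissue are given beside Gpr17 and Gpr101, since their fold changes had the same sign. None of them was called and their sums overlapped between groups, though most single markers did not overlap. The summed level of 7 oligodendrocyte markers was 50.7, 59.3 and 22.2 CPM in control replicates 1, 2 and 3 and 93.1, 55.1 and 122 CPM in burn replicates 1, 2 and 3. All 7 had a positive log2 fold change, with a median of 1.53. An unadjusted edgeR p under 0.05 was reached by 6, beside 2.96% of all tested genes, though edgeR called 0. For 4 of the 7 every burn library stood above every control, beside 7.24% of all tested genes without overlap in either direction. For 6 markers of spinal cord neurons and astrocytes the sums were 36.3, 24.1 and 23.8 CPM in controls and 49.1, 34.5 and 64.0 CPM after the burn, all 6 were positive with a median of 1.37 and an unadjusted p under 0.05, and again 0 were called. Every burn library stood above every control for 4 of these 6 as well. The most abundant marker of each list, Mobp and Aqp4 (39.4 and 22.2 CPM, control means), had overlapping groups. No marker of either list was at 0. With the spinal cord marker level as a covariate the log2 fold change was 1.01 for Gpr101, 0.40 for Gpr17 and 4.06 for Gpr151 (edgeR adjusted p 0.9999). With the oligodendrocyte marker level it was 1.13, 0.41 and 3.91, the last with an edgeR adjusted p of 0.568. All markers of both lists had positive log2 fold changes, so each covariate overlaps in part with the group difference. With either covariate edgeR called 0 genes over the whole table. The part of such tissue in the 3 differences was not tested beyond these values.

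Gpr133, the Gs-coupled adhesion receptor now named Adgrd1, had 7.29, 7.51 and 6.62 CPM in the controls, against 13.5, 10.2 and 8.97 CPM after the burn. The means were 7.14 ± 0.463 and 10.9 ± 2.33 CPM (SD, n = 3), and the groups did not overlap. Its log2 fold change was 0.60 (SE 0.18), 0.43 within the deeper and 0.65 within the shallower libraries. It was not called (edgeR adjusted p 0.9998).

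On the lower side Gpr27, an orphan known from brain and pancreatic islets, had 2.68, 3.23 and 4.26 CPM in the controls, against 2.47, 1.99 and 2.22 CPM after the burn. Its groups stood apart by a small gap, and its log2 fold change was -0.62 (SE 0.24), at -0.91 in the deeper and -0.39 in the shallower libraries. It was not called (edgeR adjusted p 0.9998).

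**Figure D2:**
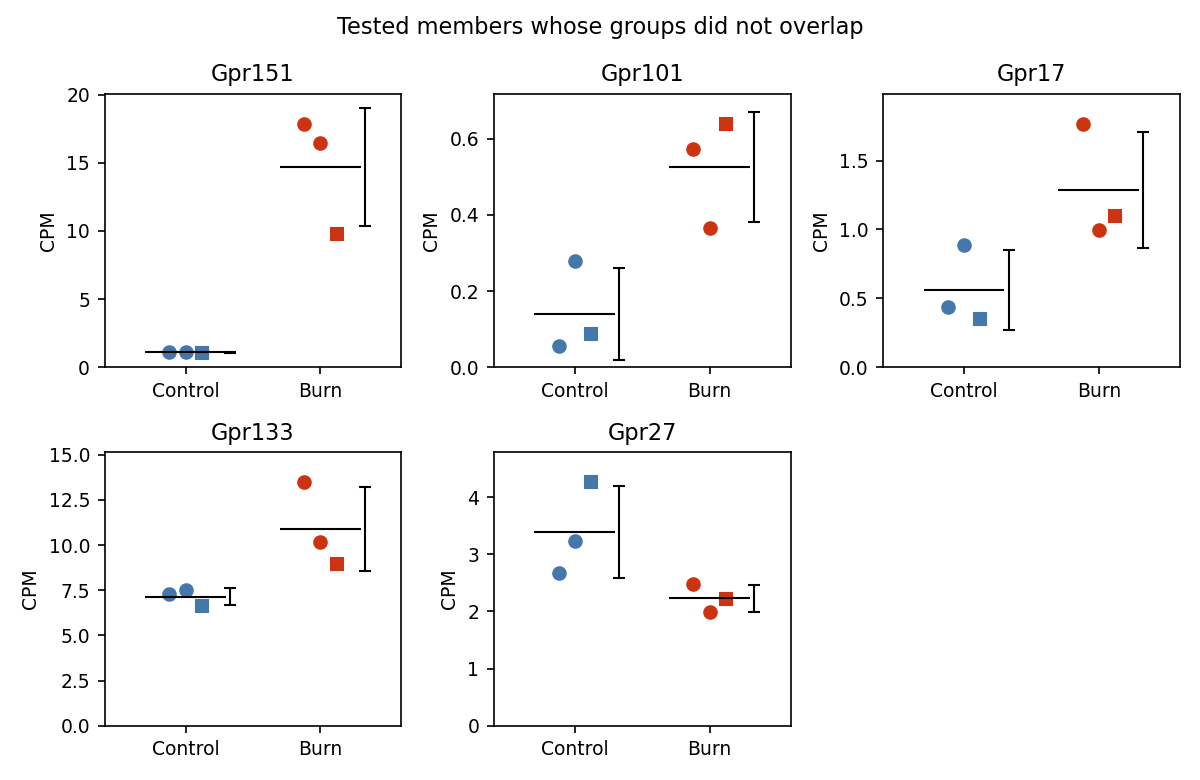
CPM of 5 tested members whose 3 control (blue) and 3 burn (red) libraries did not overlap, each panel with its own axis from 0; squares are the 2 deeper libraries, circles the 4 shallower ones, horizontal lines the means and error bars the SD (n = 3). The gap between groups is wide for Gpr151, from 1.12 to 9.73 CPM, and narrow for Gpr17 and Gpr27.

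The members with the highest level in control ganglia spanned several roles. Gpr158, a class C orphan that recruits RGS proteins to the membrane, was the highest at 23.1 ± 3.79 CPM per kb, followed by the orphan Gpr153 at 17.5 ± 3.25. Next came Gpr108, a Golgi protein, at 15.7 ± 1.69, Gpr180, linked to growth factor signalling, at 15.7 ± 0.174, and Gpr137, a lysosomal protein, at 15.5 ± 2.60. Ranks 2 to 5 did not differ beyond their SD. The list went on with the adhesion receptor Gpr56 (now Adgrg1), which binds collagen and is known from glial precursors, at 12.02 ± 2.29, Gpr155 at 10.3 ± 1.44, Gpr89 at 9.31 ± 0.863, Gpr124 at 8.74 ± 3.09 and the Golgi protein Gpr107 at 6.74 ± 0.510.

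These 10 members made up 56.6% of the summed control level per kb, 38 of the 91 were above 1 CPM per kb, and 22 were below 0.1. The median member held 0.721 CPM per kb in controls and 0.730 after the burn. None of the top 10 passed the test: their log2 fold changes ran from -0.21 for Gpr137 (SE 0.14) to 0.19 for Gpr158 (SE 0.15) and Gpr89 (SE 0.13), and none reached an unadjusted p under 0.05. Levels depend on the length used. With the longest transcript in place of the merged exons the control level was 28.4 CPM per kb for Gpr137, 14.0 for Gpr107, 18.0 for Gpr56 and 5.28 for Gpr146, and Gpr151 ranked 52 of 91 in controls and 11 after the burn.

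The largest role was that of orphans known mainly from neurons, with 26 members, 24 of them tested. Of these 12 were positive and 12 negative, with a median log2 fold change of -0.0099. Their summed level was 62.0 ± 8.08 CPM per kb in controls and 68.2 ± 2.26 after the burn. That sum includes Gpr151, whose own rise in mean level, from 0.609 to 8.28 CPM per kb, was larger than that of the sum. Gpr149, an orphan known from sensory neurons, had overlapping groups, with 19.6, 16.0 and 23.0 CPM in controls and 16.0, 18.9 and 25.5 CPM after the burn (chosen after its values were seen). Gpr63 had a log2 fold change of 0.53 (SE 0.29).

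Of the 3 class C orphans none was called, and Gpr158 had a log2 fold change of 0.19. Of the 3 receptors that raise cAMP without a ligand, Gpr3 was testable, at 0.909 ± 0.234 CPM per kb in controls and a log2 fold change of -0.32 (SE 0.26). The proton sensors Gpr4, Gpr65 and Gpr132, which respond to acid in inflamed tissue, were tested and none was called. Gpr65 was the highest of these at 1.34 ± 0.362 CPM per kb, and their log2 fold changes ran from -0.25 (Gpr132) to 0.026 (Gpr65).

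Among 9 receptors for lipids, metabolites, chemerin and zinc, 7 were tested and none was called. Gpr35, a receptor for kynurenic acid found on sensory neurons and immune cells, was the highest at 4.76 ± 0.769 CPM per kb in controls and 4.71 ± 0.288 after the burn. Gpr84, a medium-chain fatty acid receptor of activated myeloid cells, had a log2 fold change of 0.76 (SE 0.47) from 0.328, 0.223 and 0.138 CPM in controls to 0.530, 0.364 and 0.274 CPM after the burn, with overlapping groups. Gpr81 had -0.64 (SE 0.45), and its highest value, 5.62 CPM, was in control replicate 2.

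The 11 receptors known mainly from immune cells included 7 tested and 0 called members, with a median log2 fold change of -0.093. Gpr34, a lysophosphatidylserine receptor of macrophages and microglia, was the highest in controls, at 1.497 ± 0.465 CPM per kb, and had a log2 fold change of 0.47 (SE 0.28). Gpr183, an oxysterol receptor that guides lymphocytes and myeloid cells, had 0.46 (SE 0.26), and Gpr171, known from T cells and some neurons, had -0.77 (SE 0.49). Summed macrophage markers ranged from 171 to 268 CPM in controls and from 198 to 391 CPM after the burn. The 8 of them had positive log2 fold changes with a median of 0.27, and none reached an unadjusted p under 0.05. Lymphocyte markers ranged from 12.3 to 31.8 CPM in controls and from 13.0 to 19.2 CPM after the burn.

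Adhesion receptors still carrying Gpr names in the tables numbered 17, with 12 tested, 9 of these positive and 3 negative, and a median log2 fold change of 0.11. Their range ran from -0.32 for Gpr97, a receptor of neutrophils now named Adgrg3, to 0.60 for Gpr133, and none was called. Gpr126 (now Adgrg6), which Schwann cells need to myelinate axons, had 31.3, 39.9 and 45.1 CPM in controls and 32.4, 33.2 and 59.8 CPM after the burn, with overlapping groups (chosen after its values were seen). Gpr116 (now Adgrf5), known from lung epithelium and vessels, had a log2 fold change of 0.16 (SE 0.12). Summed adhesion receptor levels were 44.5 ± 4.97 CPM per kb in controls and 47.3 ± 3.18 after the burn.

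Of the 9 atypical membrane proteins of the Golgi, lysosome and melanosome 8 were tested and none was called, with log2 fold changes from -0.21 for Gpr137 to 0.19 for Gpr89 and a summed level of 80.4 ± 6.25 CPM per kb in controls and 77.8 ± 3.27 after the burn. The 6 remaining receptors had 4 tested and 0 called members. Gpr146, a receptor known from cholesterol metabolism, led them at 3.32 ± 0.487 CPM per kb. All 4 had negative log2 fold changes, down to -0.52 for Gpr20, whose groups overlapped.

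**Figure D3:**
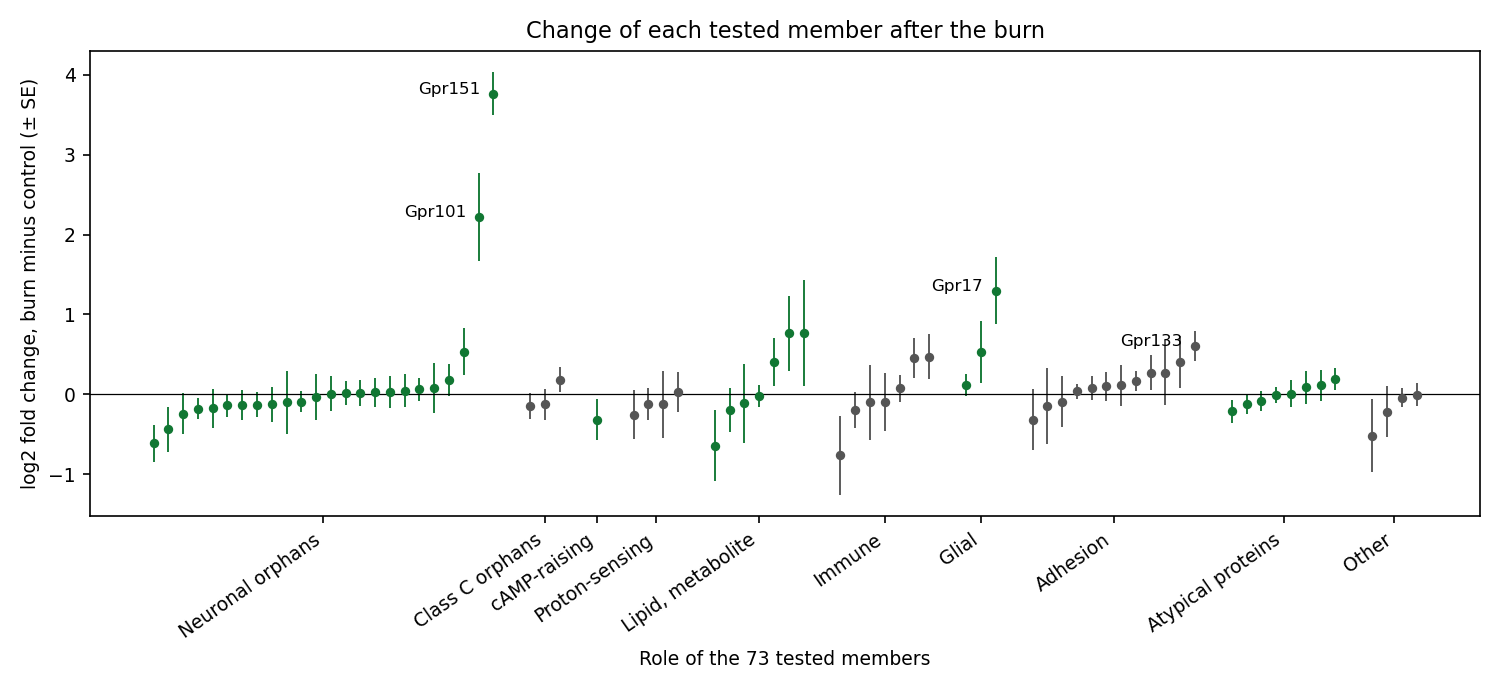
log2 fold change (burn minus control) of the 73 tested members by role, in edgeR's fit; points are members, bars 1 SE, and colours only separate neighbouring roles. Gpr151 stands at 3.77, Gpr101 at 2.22 and Gpr17 at 1.30, and most other members lie near 0.

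The 18 members not tested had between 0 and 54 reads each over all 6 libraries. They included Gpr6, Gpr12, Gpr15, Gpr25, Gpr31b, Gpr33, Gpr44, Gpr50, Gpr82, Gpr110, Gpr112, Gpr115, Gpr128, Gpr142, Gpr143 and Gpr152. Gpr142, a tryptophan receptor of pancreatic islets, had 0 reads in every library, and 7 of the 18 had fewer than 10 reads in total. A count of 0 allows up to 3 reads per library by counting error.

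Across the 73 tested members, 39 had the same sign of difference in the deeper and in the shallower libraries. Gpr151 had the largest difference of all members in both classes. Gpr81 differed in sign between the classes, at 0.16 in the deeper and -0.95 in the shallower libraries.

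**Figure D4:**
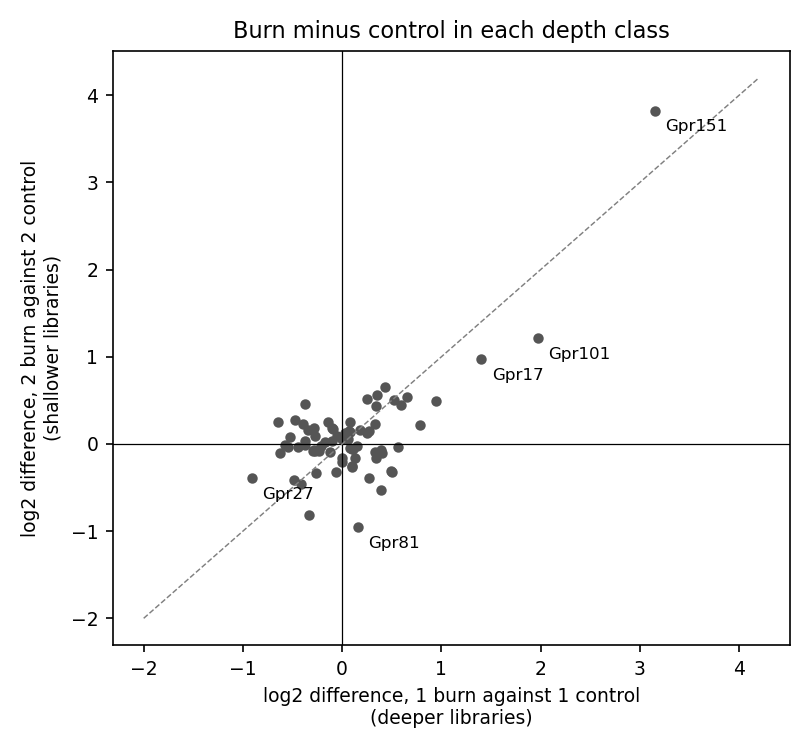
Difference of mean log2 CPM (burn minus control, 0.1 CPM added in each library before logs) for the 73 tested members, 1 point each. The horizontal axis holds the 2 deeper libraries and the vertical axis the 4 shallower ones. The dashed line marks equal values. Gpr151 stands alone at 3.15 and 3.82, Gpr101 follows at 1.97 and 1.21 and Gpr17 at 1.40 and 0.97, and most of the rest lie nearer to 0.

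Levels differed with the layout of the genes. The 44 members with 1 coding exon had a median control level of 0.448 CPM per kb, and the 47 with several had 2.39. Their median log2 fold changes were -0.029 and 0.015. Some members lie within 100 kb of each other. Gpr56 at 12.02 CPM per kb lies beside Gpr97 at 0.721, Gpr116 at 6.38 lies beside Gpr110 at 0.0171, and Gpr34 at 1.497 lies beside Gpr82 at 0.0106, while the neighbours Gpr111 and Gpr115 were alike at 0.0837 and 0.0766.

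The promoter search left out, for members, the chromosome that carries Gpr151 and Gpr17, so neither of their promoters was searched. Promoter windows, from 250 bases before to 50 after the annotated start, were taken from RefSeq (GRCm38.p6) for 66 of the remaining members, as 84 windows. They were searched on both strands for TGANTCA, the site of AP-1 factors, and TGACGTCA, the cAMP response element, because Atf3, a factor of the same leucine zipper class known from injured neurons, rose from 6.97 ± 0.234 to 72.2 ± 10.8 CPM (SD, n = 3; edgeR adjusted p 0.000387). The AP-1 letters were in 8 of the 84 windows (9.52%), beside 7.81% of 32851 windows of all genes, from which no chromosome was left out. The 8 members were Gpr3, Gpr15, Gpr35, Gpr39, Gpr56, Gpr112, Gpr115 and Gpr146, and the 5 tested ones had log2 fold changes from -0.32 to 0.075. The response element was in 1 window (1.19%), that of Gpr6, beside 1.79% of all windows. A match is a description of the letters and not evidence of binding.

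The windows given here are those of Gpr101, the member with the next largest fold change after Gpr151, and of Gpr56, an abundant member that did not pass the test and whose window holds 2 matches. The Gpr101 window is chrX:57503708-57504007 on the minus strand, has no match to either motif and a GC content of 64.3%. The Gpr56 window is chr8:94984149-94984448 on the plus strand, and capitals mark its AP-1 letters. Both are written 5′ to 3′.
Gpr101: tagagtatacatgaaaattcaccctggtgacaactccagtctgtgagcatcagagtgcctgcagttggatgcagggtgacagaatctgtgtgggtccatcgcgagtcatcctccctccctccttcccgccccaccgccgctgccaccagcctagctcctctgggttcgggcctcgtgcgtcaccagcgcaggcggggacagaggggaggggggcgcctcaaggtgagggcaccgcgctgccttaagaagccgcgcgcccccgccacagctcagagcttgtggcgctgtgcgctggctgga
Gpr56: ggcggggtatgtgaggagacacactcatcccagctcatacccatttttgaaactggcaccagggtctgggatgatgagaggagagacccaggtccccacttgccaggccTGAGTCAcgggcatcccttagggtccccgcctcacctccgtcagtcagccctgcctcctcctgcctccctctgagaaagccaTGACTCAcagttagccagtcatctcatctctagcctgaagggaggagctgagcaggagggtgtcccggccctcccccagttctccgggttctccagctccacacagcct

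The proteins that carry the receptors' signal onward were read from a list of 64 symbols, of which 62 were in the tables and 61 were tested. Grk2 and Grk3, the symbols not in the tables, are newer names of Adrbk1 and Adrbk2, which were in them. edgeR called 0 of the 61, as did DESeq2 and limma-voom; 32 were positive and 29 negative, with a median log2 fold change of 0.0054, and 1 reached an unadjusted p under 0.05. That gene was Gng13, a G protein gamma subunit known from taste and olfactory cells, at 0.305 ± 0.175 CPM in controls and 0.616 ± 0.0790 after the burn (SD, n = 3; log2 1.13, SE 0.41). The next lowest p among beta and gamma subunits was that of Gng8 (log2 -0.30, SE 0.19). Among alpha subunits the lowest p values belonged to Gnal (log2 0.14) and Gnao1 (0.13), among receptor kinases and arrestins to Arrb1 (0.16) and Grk6 (-0.17). Among adenylyl cyclases these were Adcy8 (0.29) and Adcy6 (-0.19), and among RGS proteins, which switch G proteins off, Rgs20 (0.71) and Rgs10 (-0.17).

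The 6 libraries held 17273908 to 81968142 reads in genes, and members took 22563 to 110075 of these, 0.117% to 0.134% of each library. Between 81 and 88 members had any read in a library, and 63 to 75 had at least 10. Markers of sensory neurons summed to 7992 to 9979 CPM in controls and 7582 to 8985 CPM after the burn, and those of satellite glia to 2745 to 3290 and 2375 to 2954 CPM, so the labelled tissue carried its defining markers. Schwann cell, endothelial and neutrophil markers overlapped between groups, and skeletal muscle markers ranged from 619 to 10626 CPM in controls and from 1617 to 9658 CPM after the burn.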

How the data were processed

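RNA of whole ganglia was sequenced from TruSeq stranded total RNA libraries as 75-nucleotide single-end reads, per the labels' protocols. The authors deposited raw read counts per gene symbol, 1 table per library. STAR, SAMtools, HTSeq and the mm10 (GRCm38) build are named in the submitters' processing notes; no source used here gives the annotation release or strand setting. Tally rows that name no gene held 49.2% to 56.2% of each table's total and were left out.

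Members were all symbols matching the rule; 72 matched GENCODE mouse release 21 directly and 19 by an older symbol. The members, roles and lists were chosen with earlier results of these data known, and the role of Gpr44 was added later. Counts were tested with edgeR 4.0.16 (R 4.3.3; quasi-likelihood test, two-sided, TMM scaling, filterByExpr with a minimum count of 10 and total of 15, all 6 libraries, group only), with Benjamini-Hochberg adjustment over 17534 genes; called means an adjusted p under 0.05. Alternatives used DESeq2 1.42.0, limma-voom (limma 3.58.1), other scalings and filters, a replicate block, a depth term, marker covariates and left-out libraries. CPM used TMM-scaled library sizes; levels between genes were divided by merged exon length, and the longest transcript was added as an alternative after seeing the data. Intervals cover counting error only, since reads carried no molecular identifiers. The SE given for edgeR was the absolute log2 fold change divided by the square root of the test's F statistic. The fit was tested on simulated counts.

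Named members were those called, the 12 with the lowest p, the 10 with the highest control level, the 2 above and 2 below Gpr151 in each group's order, and in each role the highest member and up to 2 with the lowest p; in each signalling list, the 2 with the lowest p. Other members, such as Gpr97, Gpr126, Gpr149 and the pairs of neighbouring genes, were named after their values were seen. A few members are not reported here by name; counts over all members include them.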

Additional observations from a re-analysis of the deposited data

How the results depend on the processing

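Gpr151 kept its direction in all 17 alternatives and its call in 10. The call was lost with limma-voom (log2 3.64, adjusted p 0.0506), with the spinal cord marker covariate (4.06), with the oligodendrocyte covariate (3.91) and on leaving out control replicate 1, 2 or 3 or burn replicate 2; over the left-out libraries the log2 fold change ran from 3.60 to 4.004, and members called from 0 to 1. Members called numbered 0 with limma-voom and with either covariate. None of the 19 other members named for a low p was called in any setting. Of these 19, 16 never changed sign; for members named only for their level, the levels were recomputed instead. The 4 reversals were those of Gpr182 (0.081 without control replicate 2), Gpr137 (0.23 and 0.11 with the spinal cord and oligodendrocyte covariates) and Gpr3 (0.033 with the spinal cord covariate); the cause was not tested. Over all genes, calls on the higher side numbered 4 in the main setting, 14 without a filter, 2 at a mean of at least 1 CPM, 28 with DESeq2, 17 with a depth term (21 lower), 11 in the 4 shallower libraries (4 lower), 0 with either covariate and 1 to 6 on leaving out libraries. With the replicate number as a block, Gpr151 had a log2 fold change of 3.94 (edgeR adjusted p 0.0467) and 4 genes were called higher. In that fit control replicate 3 and burn replicate 3 each formed a block alone, so the group difference rested on the 4 shallower libraries. Same-numbered samples deviated with a correlation of -0.39 over the 2 numbers that the labels give to both groups. No label says that a number marks a shared batch. The Gpr151 rank in controls ran from 49 to 54 on leaving out libraries. Gene levels under 1 CPM, as of Gpr101 and Gpr17, rest on few reads, which limits the precision of their fold changes; 3 libraries a group limits all tests.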
